A study of Mus musculus with 12 samples.

Results

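The genes described here are 34 mouse genes of fatty acid uptake, storage and oxidation, chosen by symbol for their function and ordered below by role. They are the fatty acid carriers, lipoprotein uptake genes, acyl-CoA synthetases, lipid droplet genes, lipases, carnitine shuttle genes, enzymes of mitochondrial beta oxidation and 2 genes of mitochondrial fuel choice. All 34 were rows of the deposited count table of 23413 genes. Of them 33 passed a filter on low counts that kept 12748 genes. The gene that failed was Vldlr, a receptor for triglyceride-rich lipoproteins, with 0 to 3 counts in each library.

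The libraries were RNA-seq of alveolar macrophages, phagocytes that live in the air sacs of the lung and were washed out of mouse lungs by lavage. Fresh cells came from wild-type mice and from mice labelled VDR knockout, at 10 and at 4 weeks of age. VDR is the vitamin D receptor, a nuclear receptor encoded by Vdr. In a separate set, wild-type cells of unstated age were kept for 24 h in complete medium with no added vitamin D3 or with 50 nM of it. Each of these 6 groups had 2 libraries. The labels do not say how the knockout was made, whether it is restricted to a cell type, or if each library of a group is from its own animal. P-values here thus reflect the spread over these libraries, some of which may be technical.

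Alveolar macrophages live among surfactant lipid, which they take up and break down. Fatty acids reach the cell on receptors and through lipases that act outside it, are carried by binding proteins and are joined to coenzyme A. They are then either stored as triglyceride and cholesteryl ester in lipid droplets or moved into mitochondria by the carnitine shuttle and oxidised. PPARγ, a nuclear receptor encoded by Pparg that pairs with a retinoid X receptor, is known to drive many genes of lipid handling in these cells, and VDR pairs with the same partner.

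Total counts per library ran from 10409572 to 23233674, so that 1 count was worth 0.0904 CPM (counts scaled to the size of the library) or less. The female-specific transcript Xist was at 800 CPM in the second wild-type and 787 CPM in the second knockout library at 10 weeks, and at 0 to 0.926 CPM elsewhere, so both 10-week groups hold 1 female and 1 male library. Vdr was not lower in every library labelled knockout. It stood at 79.6 and 127 CPM in wild type against 84.2 and 45.0 in knockout at 10 weeks, and at 56.5 and 57.7 against 45.9 and 31.2 at 4 weeks. Neither difference passed the test (edgeR adjusted p = 0.538 and 0.527), and since the deleted stretch of Vdr is not named, counts over the whole gene neither bear out nor contradict the labels. For the 10-week pair formed by knockout replicate 1 and wild-type replicate 2, the description codes name the opposite genotype from the genotype labels, which were used here. Cyp24a1, whose product breaks down vitamin D and which VDR is known to induce, was at 0.383 and 0.243 CPM in untreated culture and at 485 and 216 CPM with vitamin D3. Summed alveolar macrophage markers (22 genes) were at 28730 to 48710 CPM in fresh libraries and 22850 to 25590 CPM in culture. Chi3l3, the most abundant of them in every group, was at 14990 to 34320 CPM fresh and 5044 to 5744 CPM in culture. The lower sum in culture follows this gene and does not stand for the whole list, of which some genes rose, as given below. Markers of other cells of the lung summed, over all 12 libraries, to 134.5 to 274 CPM for T cells (12 genes), 0.281 to 7.34 for B cells (8), 19.5 to 123 for dendritic cells (12), 59.4 to 182 for monocytes and interstitial macrophages (14), 73.6 to 135 for neutrophils (10) and 1.34 to 17.4 for stroma and endothelium (13). Most of the T cell sum was Cd2 (120 to 246 CPM), while Cd3e, Cd3d and Cd3g were each at 1.345 CPM or less. Of the neutrophil list, Camp, Ngp and Retnlg were each at 0.5605 CPM or less. These sums thus do not rank the cell types by abundance.

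Several of the 34 genes are also known from fat cells. Of 10 adipocyte markers, Lep was at 0 in all 12 libraries and Adipoq at 0 in 11, with 0.0547 CPM in the other, and the whole list summed to 7.19 to 16.5 CPM in fresh and 0.421 to 1.04 CPM in cultured libraries.

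Of the 33 testable genes, 32 differed somewhere among the 6 groups (edgeR quasi-likelihood F test, adjusted p under 0.05), against 58.2% of all genes tested. Nceh1, a hydrolase of cholesteryl esters, missed the threshold with an adjusted p of 0.0684. Among the 8 fresh libraries the genes varied little. The ratio of the highest to the lowest fresh library was under 1.5 for 20 of 33 genes and under 2 for 27, with a median of 1.43 against 1.56 over all genes tested. The widest ratio, 3.04, was that of Hilpda, an inhibitor of triglyceride breakdown, for which 1 library (10-week knockout replicate 1, 10.0 CPM) stood above the other 7 (3.29 to 4.68 CPM). Pdk4, a kinase that shuts off pyruvate dehydrogenase, followed at 2.85. The steadiest were Hadha at 1.12, Soat1 at 1.16 and Acsl4 at 1.16.

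Per kilobase of transcript, which allows levels of different genes to be compared, Plin2 ranked first in fresh cells with a median of 653 CPM per kb. It codes for the main coat protein of lipid droplets in macrophages. Ucp2, an uncoupling protein family carrier of the inner mitochondrial membrane, followed at 623 and Lpl, the lipase that frees fatty acids from lipoproteins, at 585. Their ranges over the 8 libraries overlapped (607 to 735, 573 to 676 and 358 to 772 CPM per kb), so the order of these 3 is within their spread. Lipa, the lysosomal acid lipase, came next at 308 (251 to 360) and Fabp5, a fatty acid carrier, at 263 (181 to 387), which again overlapped. Most enzymes of the oxidation pathway lay lower, with Ech1 at 181, Hadhb at 82.2, Hadha at 73.1, Acadl at 55.9, Acaa2 at 51.6, Acadvl at 43.0 and Acadm at 40.0. At the bottom were G0s2 at 8.07, Pdk4 at 5.0, Hilpda at 3.82, Lipe at 3.41 and Vldlr at 0.0111 CPM per kb. The hormone-sensitive lipase Lipe thus sat far below the adipose triglyceride lipase Pnpla2, which had 142 CPM per kb (119 to 184), with no overlap between their ranges.

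**Figure D1:**
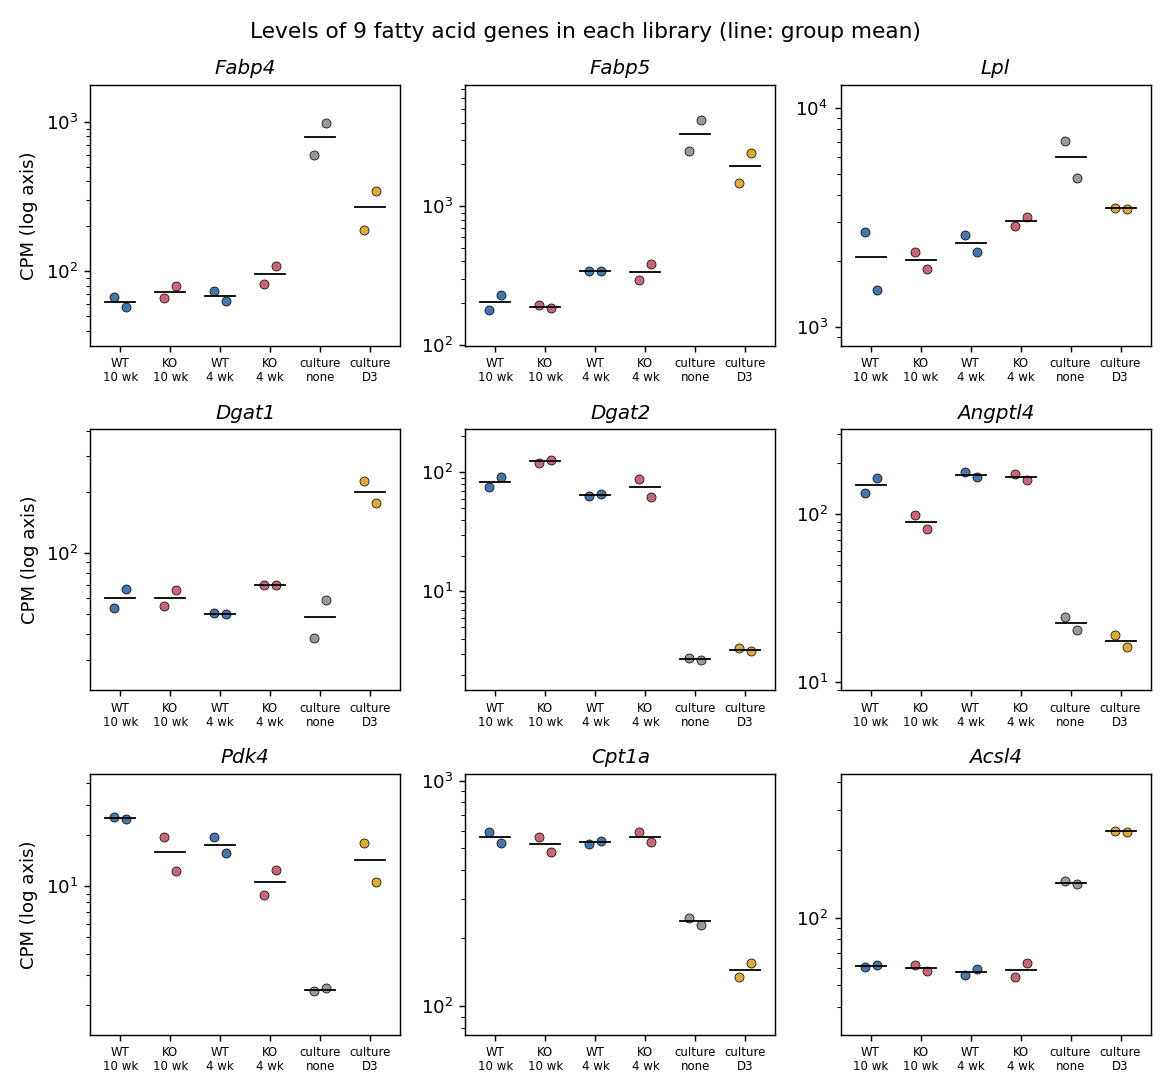
Normalised read counts (CPM, log axis, each panel with its own scale) of 9 of the genes in each of the 12 libraries, by group; points are libraries and lines are means of 2. The fresh groups lie close together in most panels, Fabp4, Fabp5 and Lpl are higher in culture, Dgat2 and Angptl4 lower, and Dgat1, Pdk4 and Acsl4 are higher with vitamin D3 than without.

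Culture for 24 h without vitamin D3 went with a rearrangement of these genes rather than a common shift. Both carriers, the lysosomal lipase gene Lipa and the cholesterol-esterifying gene Soat1 rose, while the triglyceride synthase gene Dgat2, the lipoprotein lipase inhibitor Angptl4 and the 3 carnitine shuttle genes fell. Against fresh wild type at 10 weeks, 13 genes were higher and 10 lower, 23 of 33 in all, where 42.4% of all genes passed (21.2% higher and 21.2% lower). Against 4 weeks, 9 were higher and 11 lower, 20 of 33, where 39.7% of all genes passed (20.1% higher and 19.5% lower). The median log2 difference of the 33 genes was -0.03 and 0.01, beside -0.02 and -0.02 over all genes tested. The median size of the difference was 0.62 and 0.63, beside 0.46 and 0.43. Both comparisons use the same culture libraries, and their values are given side by side below, 10 weeks first. Age of the animals, isolation batch and culture itself cannot be told apart in this design, nor in bulk RNA can fewer cells of a type be told from less RNA per cell.

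The carriers were highest in untreated culture. Fabp4, which ferries fatty acids through the cytosol and is a known PPARγ target, was at 67.6 and 57.3 CPM in fresh 10-week wild type, 73.4 and 63.0 CPM at 4 weeks, and 599.5 and 978 CPM after culture. The cultured libraries were both far above every fresh one, by a log2 difference of 3.66 ± 0.30 and 3.53 ± 0.30 (SE; adjusted p = 3.35e-06 and 4.14e-06 by edgeR). Fabp5 was at 178 and 228 CPM at 10 weeks, at 339 and 340 CPM at 4 weeks and at 2491 and 4149 CPM after culture. Its log2 rise was 4.03 ± 0.29 and 3.29 ± 0.28 (edgeR adjusted p = 1.01e-06 and 3.57e-06). The annotation also lists a Fabp5 pseudogene, and how the authors' counting treated reads shared with it is not given, so the level of Fabp5 is less certain than that of Fabp4.

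Of the genes that act on lipoproteins, Lpl rose and its inhibitor fell. Lpl was at 2709 and 1472 CPM at 10 weeks, 2619 and 2192 CPM at 4 weeks, and 7092 and 4794 CPM in culture, a log2 rise of 1.51 ± 0.25 and 1.30 ± 0.25. Angptl4, a secreted protein that inactivates lipoprotein lipase, went from 133 and 164 CPM at 10 weeks and 176 and 166 CPM at 4 weeks to 24.4 and 20.3 CPM. The cultured level was 0.151 and 0.131 of the fresh one (edgeR adjusted p = 2.44e-07 and 1.54e-07), with no overlap. Lrp1, a large endocytic receptor, passed neither test, at 3391 and 2198 CPM in culture.

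Among the acyl-CoA synthetases, Acsl4 and Acsl5 rose in both comparisons. Acsl4, which prefers arachidonic acid, went from 55.5 to 61.7 CPM in the 4 fresh wild-type libraries to 145 and 141 CPM, a log2 rise of 1.23 ± 0.10 and 1.32 ± 0.10. The rise of Acsl5 was smaller, 0.52 ± 0.11 and 0.55 ± 0.11. Acsl1 passed neither test, with differences of 0.22 ± 0.12 and 0.01 ± 0.12.

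Among the storage genes Dgat2 fell and Dgat1 did not pass. Dgat2 (chr7:99153658-99182719, GRCm38, minus strand), one of 2 unrelated enzymes that make triglyceride, had the largest change of the 33, from 74.6 and 92.1 CPM at 10 weeks and 63.1 and 66.3 CPM at 4 weeks to 2.74 and 2.67 CPM. That is 0.0326 and 0.0420 of the fresh level (edgeR adjusted p = 4.5e-08 and 6.54e-08), on 50 and 33 counts in the cultured libraries. A Dgat2 pseudogene is also annotated, with the same limit as for Fabp5. The other enzyme, Dgat1, did not pass, at 38.2 and 58.9 CPM in culture against 50.3 to 66.7 CPM in the 4 fresh wild-type libraries.

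Soat1, which esterifies cholesterol for storage, rose from 274 to 291 CPM in the 4 fresh libraries to 884 and 852 CPM (log2 1.63 ± 0.12 and 1.60 ± 0.12). Plin3, another droplet coat protein, rose by 1.06 ± 0.14 and 0.89 ± 0.14. Plin2 was slightly lower in culture, called against 4 weeks only (-0.45 ± 0.12, against -0.26 ± 0.12 and an edgeR adjusted p of 0.0894 at 10 weeks). That call was lost without 4-week wild-type replicate 2 (-0.41, edgeR adjusted p = 0.0633) or without untreated culture replicate 1 (-0.28, 0.0648).

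The 2 small inhibitors of the triglyceride lipase moved apart at low levels. G0s2 fell from 6.15 to 8.21 CPM in the 4 fresh libraries to 0.602 and 2.75 CPM (11 and 34 counts), by log2 -2.16 ± 0.65 and -2.29 ± 0.65. It lost its call at 10 weeks without wild-type replicate 2 (-1.95, edgeR adjusted p = 0.0763) or culture replicate 1 (-1.36, 0.125), and at 4 weeks without wild-type replicate 2 (-2.19, 0.0561) or culture replicate 1 (-1.48, 0.106). G0s2 overlaps Lamb3 on the opposite strand, and whether the authors counted by strand is not given, so reads of the 2 genes may be mixed. Hilpda was called higher against 10 weeks (1.46 ± 0.46, edgeR adjusted p = 0.0226) but not against 4 weeks (1.18 ± 0.44, 0.0535). Its 10-week call was lost without wild-type replicate 1 (1.38, 0.116), wild-type replicate 2 (1.54, 0.072) or culture replicate 2 (0.80, 0.225), and without culture replicate 1 the 4-week difference passed (1.67, 0.0146).

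Among the lipases, Lipa and Mgll rose in both comparisons. Lipa, which frees lipids inside lysosomes, went from 745 to 948 CPM in the 4 fresh libraries to 4551 and 3680 CPM, a 4.86-fold and 5.07-fold rise (edgeR adjusted p = 7.34e-07 and 6.98e-07). Mgll, which splits monoglycerides, was at 277 to 309 CPM fresh and at 769 and 1406 CPM in culture, with log2 rises of 1.88 ± 0.28 and 1.92 ± 0.28. Abhd5, the activator of Pnpla2, rose against 10 weeks only (0.55 ± 0.10, against 0.01 ± 0.10 at 4 weeks), and lost that call with the conflicting 10-week labels exchanged (0.36, edgeR adjusted p = 0.0599). Pnpla2, Lipe and Nceh1 passed neither test.

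All 3 carnitine shuttle genes fell in both comparisons. Cpt1a, the enzyme that controls entry of long fatty acids into mitochondria, was at 525 to 592 CPM in the 4 fresh wild-type libraries and at 247 and 229 CPM in culture, a log2 fall of -1.24 ± 0.12 and -1.17 ± 0.12. Cpt2, its partner inside the mitochondrion, changed by -0.49 ± 0.11 and -0.63 ± 0.11. Slc25a20, the carrier that links them across the inner membrane, changed by -0.62 ± 0.13 and -0.72 ± 0.13.

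The enzymes of beta oxidation itself did not move as a block. Acadm and Acadvl, the medium and very long chain dehydrogenases, and Ech1, an isomerase for unsaturated fatty acids, fell in both comparisons. Their log2 differences ran from -0.66 to -0.38. Acadm lost its 4-week call without wild-type replicate 1 (-0.36, edgeR adjusted p = 0.0543). Acadvl lost its 10-week call without wild-type replicate 1 (-0.36, 0.0922), wild-type replicate 2 (-0.41, 0.0562) or culture replicate 1 (-0.30, 0.118), and its 4-week call without wild-type replicate 1 (-0.25, 0.18) or culture replicate 1 (-0.29, 0.146). Acadl and Acaa2 rose against 10 weeks only, by 0.71 ± 0.15 and 0.42 ± 0.11, and Acaa2 lost that call without culture replicate 2 (0.30, 0.0681). Without culture replicate 1 both passed against 4 weeks as well (Acadl 0.57, edgeR adjusted p = 0.00449, and Acaa2 0.33, 0.0489). Hadha and Hadhb passed neither test.

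Pdk4, which spares glucose carbon when fatty acids are burned, fell steeply. It went from 25.2 and 24.5 CPM at 10 weeks and 19.4 and 15.5 CPM at 4 weeks to 2.41 and 2.51 CPM (44 and 31 counts). The cultured level was 0.0989 and 0.141 of the fresh one (edgeR adjusted p = 9.2e-06 and 3.41e-05). Ucp2 passed neither test and kept a high level, 2452 and 2073 CPM in culture.

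Leaving out untreated culture replicate 1 or 2 also brought other genes past the threshold. Against 10 weeks these were Lrp1 (-0.43, edgeR adjusted p = 0.0411) and Nceh1 (-0.40, 0.0328) without replicate 1, and Dgat1 (-0.65, 0.0195), Plin2 (-0.44, 0.00786) and Lipe (-1.07, 0.0317) without replicate 2. Against 4 weeks they were Nceh1 (-0.39, 0.0427) and Ucp2 (-0.30, 0.0397) without replicate 1, and Lrp1 (0.65, 0.0051) without replicate 2.

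**Figure D2:**
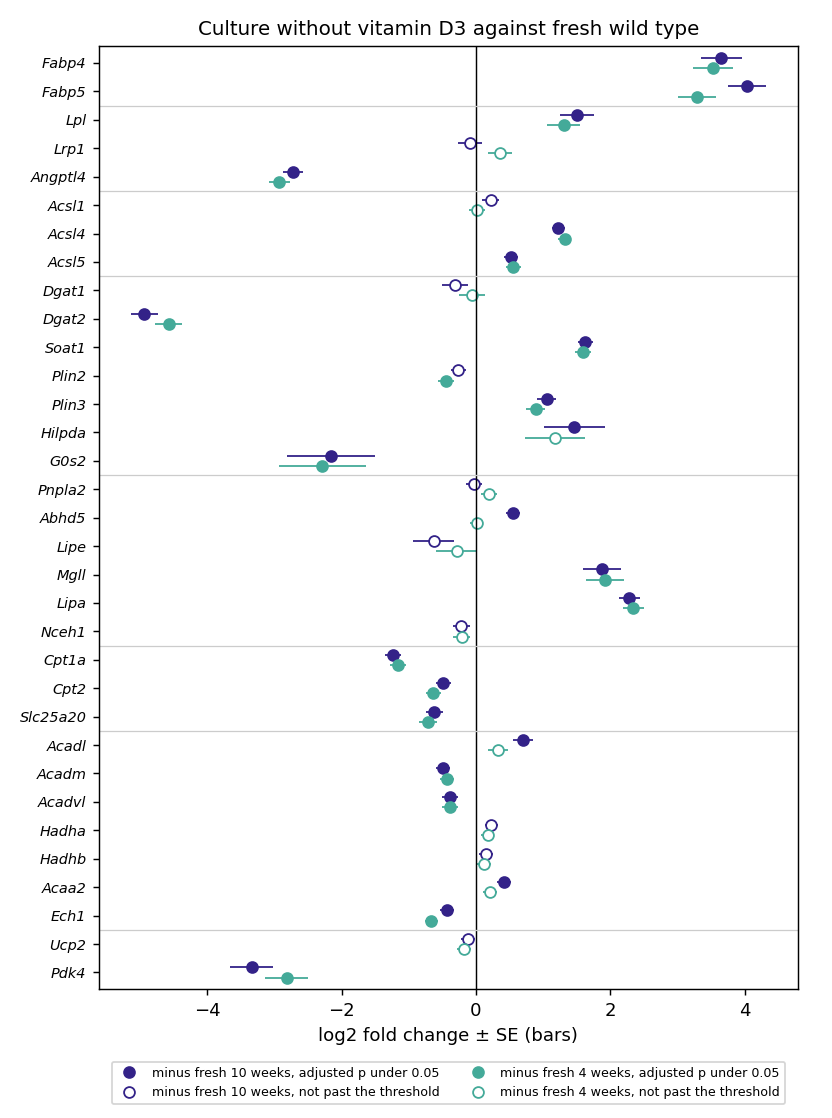
Log2 fold change (± SE) of the 33 genes in untreated culture against fresh wild type at 10 weeks (dark) and 4 weeks (light), in order of role with lines between roles; filled points passed the threshold. Fabp4, Fabp5, Lipa, Mgll and Soat1 lie to the right and Dgat2, Angptl4, Pdk4 and G0s2 far to the left against both ages.

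Markers of the cells themselves moved in the same comparisons. Of 21 tested alveolar macrophage markers, 5 were higher and 11 lower in culture than in 10-week cells, where 42.4% of all genes passed. The list shares Pparg and Cidec with the pathway lists below. Car4 fell from 216 to 618 CPM in fresh wild type to 0.657 and 0.972 CPM. Ctsk went the other way, from 300 to 473 CPM to 4805 and 5169 CPM, as did Cd68, from 544.5 to 678 CPM to 1958 and 2388 CPM. Summed lung epithelial markers (21 genes) were at 239 to 538 CPM in fresh wild type and 60.8 to 61.8 CPM in untreated culture, and erythroid genes (9) at 71.9 to 3153 CPM against 1.04 to 3.24 CPM. Their part in the differences of the lipid genes was not tested.

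With 50 nM vitamin D3, 5 of the genes were higher than in untreated culture and 6 lower, 11 of 33, where 10.6% of all genes passed (5% higher and 5.63% lower). The genes that rose were Dgat1, Pdk4, Acsl4, Hadhb and Hadha. Those that fell were Fabp4, Lipe, Cpt1a, Acsl1, Ucp2 and Soat1. The median log2 difference of the 33 genes was -0.18, beside 0.00 over all genes tested, and its median size 0.39, beside 0.23. The groups did not overlap for 25 of the 33 genes, where this held for 48.9% of all genes. Both arms had 1 library from each of the 2 series of title numbers. The arms of all 11 called genes did not overlap, so their equal sign within either series was given in advance. Without vitamin D3 replicate 1 the count was 7 of 33.

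Pdk4 (chr6:5483351-5496309, GRCm38, minus strand) had the largest rise, from 2.41 and 2.51 CPM without vitamin D3 to 17.9 and 10.5 CPM with it (44 and 31 against 364 and 149 counts). Its log2 difference was 2.54 ± 0.32 (edgeR adjusted p = 0.000451), and 2.66 and 1.87 within the 2 title series. With vitamin D3 the level was back among or just below the fresh wild-type libraries (15.5 to 25.2 CPM). Compared directly, it was lower than at 10 weeks (-0.80 ± 0.27, edgeR adjusted p = 0.0265) and did not pass against 4 weeks (-0.28 ± 0.27, 0.417). The interval of the 4-week difference, -0.94 to 0.38, leaves room for a change in either direction.

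Dgat1 (chr15:76502015-76511953, minus strand) rose past every fresh library. It was at 38.2 and 58.9 CPM without vitamin D3 and at 225 and 175 CPM with it, while the 8 fresh libraries lay between 50.3 and 69.8 CPM. The log2 difference was 2.05 ± 0.20, or 4.14-fold (edgeR adjusted p = 7.83e-05), and 2.54 and 1.57 within the title series. Dgat2, which makes the same product, stayed at 3.34 and 3.16 CPM with vitamin D3 against 2.74 and 2.67 CPM without (0.27 ± 0.24, edgeR adjusted p = 0.574).

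Acsl4 rose further from its cultured level, from 145 and 141 CPM to 241 and 241 CPM (log2 0.76 ± 0.10, edgeR adjusted p = 0.000509). The libraries of each arm lay close together and the arms did not overlap. Its relative Acsl1 went the other way, from 129 and 115 CPM to 71.1 and 82.1 CPM (-0.68 ± 0.12, edgeR adjusted p = 0.00448). The call for Acsl1 was lost without vitamin D3 replicate 1 (-0.58, edgeR adjusted p = 0.0599). Acsl5 did not pass (-0.26 ± 0.11).

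Hadha and Hadhb code for the alpha and beta subunits of the mitochondrial trifunctional protein, which carries out the last steps of each oxidation cycle on long fatty acids. Hadhb was at 178 and 200 CPM without vitamin D3 and at 310 and 286 CPM with it, above all 8 fresh libraries (153 to 182 CPM). Its log2 difference was 0.66 ± 0.10 (edgeR adjusted p = 0.00178). Hadha was at 328 and 348 CPM without vitamin D3 and at 450 and 440 CPM with it, with fresh libraries at 273 to 306 CPM. Its log2 difference was 0.40 ± 0.10 (edgeR adjusted p = 0.0224). The Hadha call was lost without untreated replicate 1 (0.36) or vitamin D3 replicate 1 (0.38), and in a fit on the 2 culture groups alone. Hadha also overlaps Garem2 on the opposite strand.

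The 2 subunit genes lie head to head on chromosome 5, with 273 bases between their RefSeq start sites, so that their upstream stretches are largely the same DNA (228 of 250 bases). That stretch is shown because the pair shares it, and those of Pdk4 and Acsl4 because these genes also rose with vitamin D3. The sequences are the 250 bases before each RefSeq start site (GRCm38.p6), which can differ from the GENCODE starts behind the gene positions given here. The first bases of a GENCODE gene can thus lie in the stretch, as for Pdk4 and Hadhb. In GENCODE the 2 genes start closer together, Hadha at chr5:30155162 (minus strand) and Hadhb at chr5:30155248, so most of the Hadhb stretch lies inside Hadha. The sequences are printed 5′ to 3′ on the strand of the gene, while the submitters' processing notes name the older build mm9. Capitals mark GGGCGG (a GC box), CCAAT and AGGTCA (the unit to which VDR and PPARγ bind as spaced repeats), read on either strand.
Hadhb, chr5:30155003-30155252, plus strand, upstream of the RefSeq start: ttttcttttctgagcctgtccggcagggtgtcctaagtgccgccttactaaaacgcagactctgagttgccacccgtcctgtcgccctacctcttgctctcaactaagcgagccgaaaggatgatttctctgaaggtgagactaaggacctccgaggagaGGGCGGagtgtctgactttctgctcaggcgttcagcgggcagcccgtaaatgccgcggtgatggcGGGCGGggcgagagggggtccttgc
Pdk4, chr6:5496279-5496528, minus strand, upstream of the RefSeq start: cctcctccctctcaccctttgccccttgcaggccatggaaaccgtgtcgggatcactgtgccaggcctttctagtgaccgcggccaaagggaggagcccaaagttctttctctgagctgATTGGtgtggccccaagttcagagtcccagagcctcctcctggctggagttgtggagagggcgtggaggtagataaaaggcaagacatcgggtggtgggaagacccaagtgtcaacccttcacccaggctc
Acsl4, chrX:142390536-142390785, minus strand, upstream of the RefSeq start: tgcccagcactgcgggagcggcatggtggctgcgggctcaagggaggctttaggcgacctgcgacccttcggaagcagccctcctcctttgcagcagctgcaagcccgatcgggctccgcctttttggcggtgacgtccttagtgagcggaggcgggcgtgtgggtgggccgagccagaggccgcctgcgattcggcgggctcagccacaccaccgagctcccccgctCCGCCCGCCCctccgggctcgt

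These stretches hold 2 GC boxes for Hadhb, a single CCAAT box for Pdk4, 2 overlapping GC boxes for Acsl4, and no AGGTCA. Promoter windows (250 bases before to 50 after the start site) were matched for 27 of the 34 genes, 32 windows in all, out of 32851 in the table. The table gave none for Fabp4, Fabp5, Lpl, Angptl4, Dgat1, Dgat2 and Acaa2. The repeat with 1 base between units (AGGTCANAGGTCA, the PPAR type) was in 0 of the 32 windows and in 0.0396% of all windows. The repeat with 3 bases between units (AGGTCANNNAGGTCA, the VDR type) was in 0 of the 32 and in 0.00609% of all. Single AGGTCA units were in 5 of 32 windows against 16.3% of all, GGGCGG in 24 of 32 against 35.7%, and CCAAT in 10 of 32 against 37.4%, on both strands and with overlapping matches counted once per window. The absence of these exact letters from a window of this length says nothing about binding by either receptor.

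Among the genes that fell, Fabp4 (chr3:10204088-10208576, minus strand) was at 599.5 and 978 CPM without vitamin D3 and at 188 and 346.5 CPM with it. That left it 0.339 of the untreated level (log2 -1.56 ± 0.28, edgeR adjusted p = 0.00404), yet still above all 8 fresh libraries (57.3 to 108 CPM). Fabp5 was at 2491 and 4149 CPM without and 1476 and 2416 CPM with vitamin D3 (-0.77 ± 0.25, edgeR adjusted p = 0.0791). The arms of Fabp5 did not overlap, but the difference missed the threshold. Within the 2 title series it was -0.755 and -0.78, and it passed with the series as a block (-0.77, edgeR adjusted p = 0.0161), without untreated replicate 1 (-1.09, 0.0215) or without vitamin D3 replicate 3 (-1.16, 0.0193). Lpl was similar in size, at 7092 and 4794 CPM without and 3489 and 3468 CPM with vitamin D3 (-0.77 ± 0.25, edgeR adjusted p = 0.0706, and -1.03, 0.0309, without untreated replicate 2). With the title series as a block Lpl passed (-0.73, edgeR adjusted p = 0.0175).

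Cpt1a fell further from its cultured level, from 247 and 229 CPM to 135 and 155.5 CPM (log2 -0.71 ± 0.12, edgeR adjusted p = 0.00225). Its other partners in the shuttle did not pass, with Cpt2 at -0.28 ± 0.11 and Slc25a20 at 0.03 ± 0.13. Ucp2 went from 2452 and 2073 CPM to 1552 and 1500 CPM (-0.57 ± 0.10, edgeR adjusted p = 0.00404), below all 8 fresh libraries (2284 to 2696 CPM). The call was lost in a fit on the 2 culture groups alone (-0.57, edgeR adjusted p = 0.0988). Ucp2 overlaps Dnajb13 on the opposite strand.

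Soat1 went from 884 and 852 CPM to 553 and 678 CPM, without overlap (-0.50 ± 0.11, edgeR adjusted p = 0.0163). That call was lost without untreated replicate 1 (-0.47) or vitamin D3 replicate 1 (-0.36), and in a fit on the 2 culture groups alone. Lipe was low throughout, at 6.02 and 10.5 CPM without and 2.41 and 4.92 CPM with vitamin D3 (-1.19 ± 0.33, edgeR adjusted p = 0.0388). Its call was lost without untreated replicate 2 (-0.75) or vitamin D3 replicate 1 (-0.73). It was also lost with sex as a covariate, without both female libraries, and in a fit on the 2 culture groups alone.

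The other lipases all had negative differences that missed the threshold, from -0.39 ± 0.12 for Pnpla2 (edgeR adjusted p = 0.0623) to -0.08 ± 0.13 for Nceh1. Without untreated replicate 1, Pnpla2 passed (-0.51, edgeR adjusted p = 0.0474), as did Acaa2 (-0.47, 0.0346) and Lrp1 (0.80, 0.0104), which had -0.35 ± 0.11 and 0.45 ± 0.18 with all libraries. With the title series as a block the same 3 genes passed (Pnpla2 -0.39, Acaa2 -0.35 and Lrp1 0.47, edgeR adjusted p = 0.0151, 0.0211 and 0.0461). Hilpda was at 6.24 and 13.8 CPM without and 19.2 and 26.6 CPM with vitamin D3 (1.21 ± 0.42, edgeR adjusted p = 0.0958, and 1.87, 0.0349, without untreated replicate 2). G0s2 was too low to separate (0.602 and 2.75 against 0.148 and 1.55 CPM), and it passed only without vitamin D3 replicate 3 (-3.35, edgeR adjusted p = 0.046). The droplet coat genes Plin2 (-0.09 ± 0.12) and Plin3 (0.07 ± 0.14) and the oxidation genes Acadl, Acadm, Acadvl and Ech1 (-0.02 to 0.10) had differences within about 1 SE of 0.

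**Figure D3:**
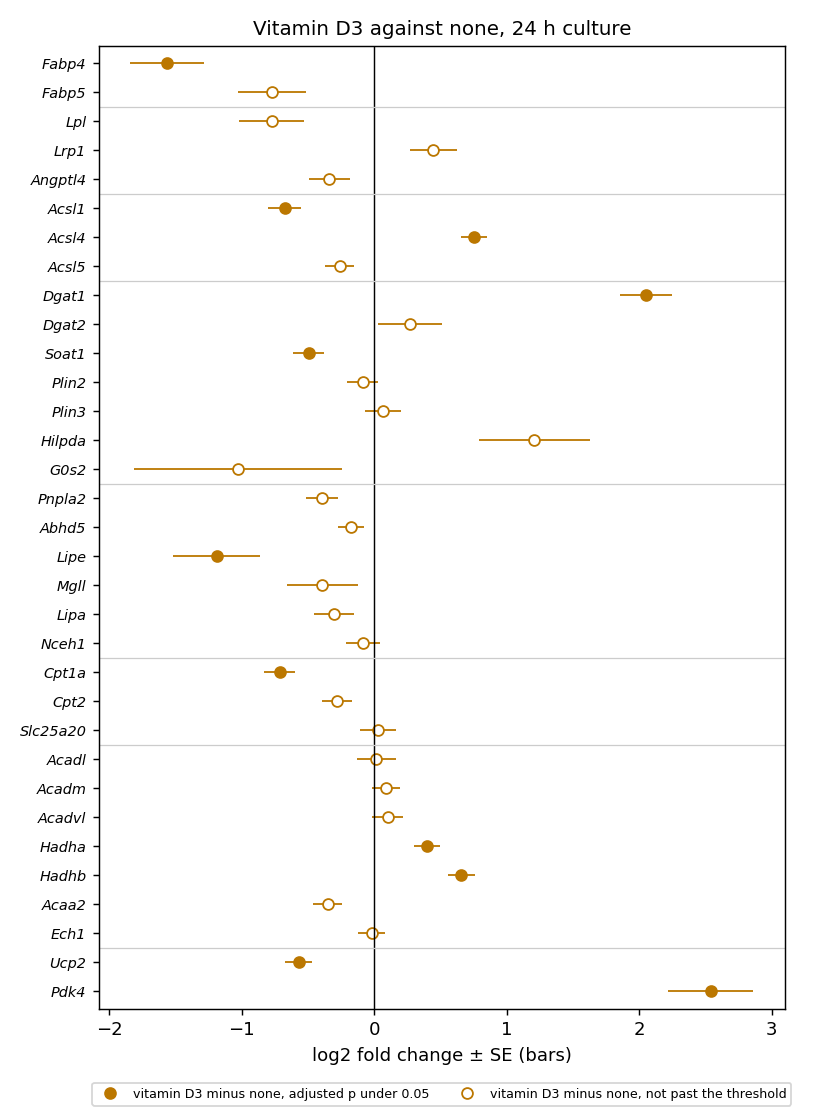
Log2 fold change (± SE) of the 33 genes in culture with 50 nM vitamin D3 against culture without, in order of role with lines between roles; filled points passed the threshold. Pdk4 and Dgat1 lie farthest to the right and Fabp4 farthest to the left among the filled points.

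Marker genes moved here as well. Of 21 alveolar macrophage markers, 4 were higher and 5 lower with vitamin D3 (10.6% of all genes passed), with a median log2 difference of -0.05. Car4 rose from 0.657 and 0.972 to 7.18 and 7.87 CPM, while Fcgr1 went from 12.3 and 13.5 to 1.87 and 4.57 CPM. Summed epithelial markers were at 60.8 to 61.8 CPM without and 102 to 129 CPM with vitamin D3. Most of that difference lay in Pdpn (13.5 and 12.2 against 48.9 and 36.2 CPM) and Cdh1 (21.6 and 18.0 against 50.4 and 40.3 CPM). The surfactant gene Sftpc was at 0.243 to 0.492 CPM over both arms. The part of other cells was not tested.

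Set against fresh wild type, vitamin D3-treated culture had 28 of 33 genes past the threshold at 10 weeks (14 higher and 14 lower, where 25.4% and 25.6% of all genes were, 51% together) and 25 of 33 at 4 weeks (13 higher and 12 lower, where 23.7% and 23.2% were, 46.9% together). These comparisons were added after the other values had been seen, and they share libraries with those above. Dgat2 stayed at 0.0393 and 0.0505 of the fresh level and Angptl4 at 0.119 and 0.104, 10 weeks first. Cpt1a was at 0.258 and 0.272 of it, and Fabp5 remained 9.59-fold and 5.74-fold higher.

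The genotype comparison asks whether the lipid genes of fresh cells depend on VDR. At 10 weeks 0 of 33 genes passed, where 0.11% of all genes did. Of the 33, 6 had an unadjusted p under 0.05, against 9.76% of all genes. DESeq2 called 149 genes over all, and 1 of the 33. That gene was Angptl4, at 133 and 164 CPM in wild type and 98.5 and 81.2 CPM in the libraries labelled knockout. The groups did not overlap, and the log2 difference was -0.72 ± 0.14 (edgeR adjusted p = 0.0947, DESeq2 adjusted p = 0.00089). With the pair of conflicting labels exchanged, the difference was 0.08, so the direction rests on which label is right. At 4 weeks Angptl4 had 176 and 166 CPM in wild-type and 173 and 159 CPM in knockout libraries (-0.04 ± 0.14).

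Dgat2 had the next smallest p at 10 weeks, with 74.6 and 92.1 CPM in wild type and 120 and 127 CPM in knockout (0.57 ± 0.15, edgeR adjusted p = 0.199). Again the groups did not overlap, as for 13 of 33 genes and 40.6% of all genes. With the labels exchanged the Dgat2 difference was 0.17. At 10 weeks summed epithelial markers were at 434 to 538 CPM in wild type against 597.5 to 727 CPM in knockout, and dendritic markers at 64.5 to 86.6 against 35.6 to 36.6 CPM, without overlap. Their part in these differences was not tested.

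At 4 weeks 1 gene passed, where 0.667% of all genes did. Cpt2 (chr4:107903981-107923610, GRCm38, minus strand) had 49.5 and 55.1 CPM in wild-type against 78.8 and 79.9 CPM in knockout libraries, a log2 rise of 0.60 ± 0.11, or 1.51-fold (edgeR adjusted p = 0.0326). Both knockout libraries stood above all other libraries, whose fresh values ran from 47.0 to 55.1 CPM. The call was lost without any 1 of the 4 libraries: wild-type replicate 1 (0.53, edgeR adjusted p = 0.312) or 2 (0.68, 0.0868), or knockout replicate 1 (0.61, 0.179) or 2 (0.59, 0.253). It was also lost when the 10-week labels were exchanged, which leaves the 4-week values as they were and changes the spread of the fit (0.60, edgeR adjusted p = 0.066). At 10 weeks Cpt2 had 47.7 and 47.0 CPM in wild-type and 51.5 and 50.2 CPM in knockout libraries (0.10 ± 0.11).

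Acadm had the next smallest p at 4 weeks, with 95.2 and 84.1 CPM in wild type and 71.2 and 62.8 CPM in knockout (-0.42 ± 0.10, edgeR adjusted p = 0.118). Summed erythroid genes were at 1334 and 3153 CPM in 4-week wild type against 349 and 645 CPM in knockout, and Alas2 was called lower; their part in these differences was not tested.

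Averaged over both ages, 0 of 33 genes passed, where 0.996% of all genes did. Of the 33, 8 had an unadjusted p under 0.05, against 13.1% of all genes. DESeq2 called 369 genes over all, and 6 of the 33 (Cpt2, Acadm, Abhd5, Angptl4, Dgat2 and Pdk4). Cpt2 (0.35 ± 0.08), Acadm (-0.33 ± 0.07) and Abhd5 (0.31 ± 0.07) came closest, with edgeR adjusted p of 0.0599, 0.061 and 0.0659. Pdk4 had the largest fitted difference, -0.68 ± 0.19 (edgeR adjusted p = 0.142). Its 4 wild-type libraries were at 25.2, 24.5, 19.4 and 15.5 CPM and its 4 knockout libraries at 19.4, 12.2, 8.85 and 12.3 CPM. The groups did not overlap at either age, which is common with 2 libraries a group. At 10 weeks it held for 13 of the 33 genes and 40.6% of all genes.

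For none of the 33 genes did the genotype difference change with age past the threshold. For the genotype by age interaction 0 of 33 genes were called, where 0.188% of all genes were. Of the 33, 2 had an unadjusted p under 0.05, against 8.65% of all genes. DESeq2 called 89 genes over all, and 0 of the 33.

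**Figure D4:**
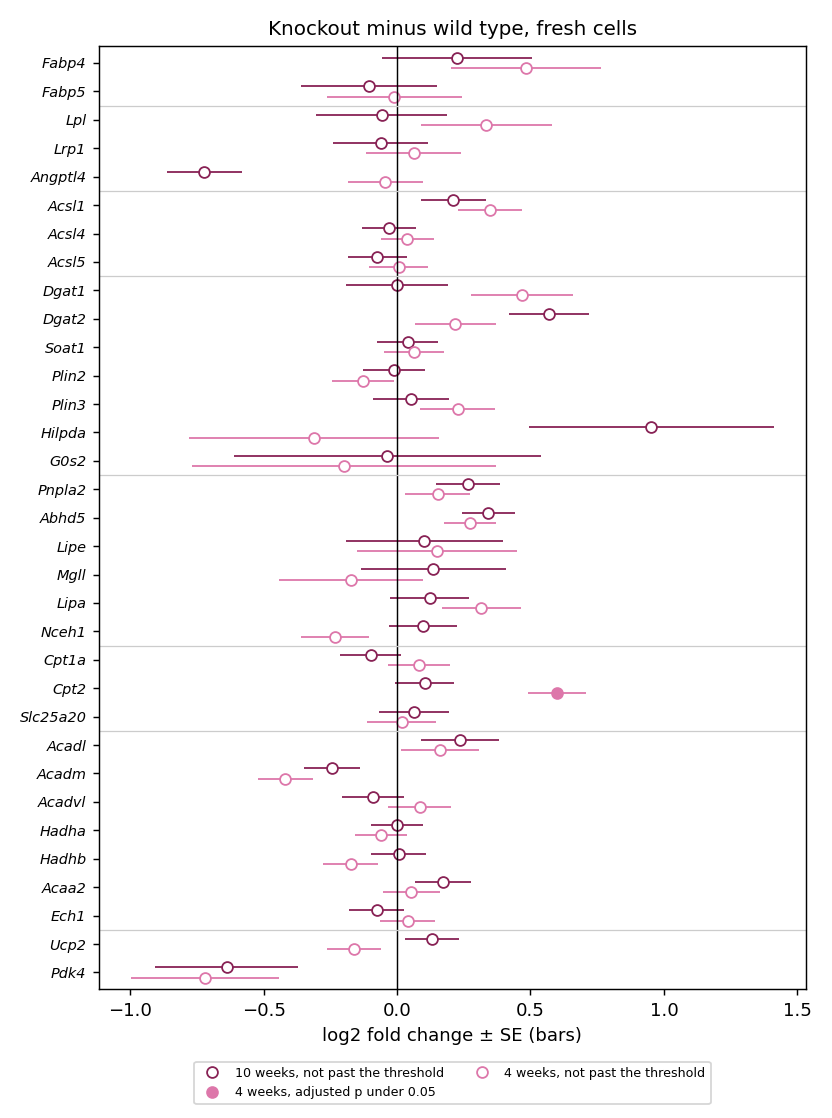
Log2 fold change (± SE) of the 33 genes in fresh cells labelled knockout against wild type at 10 weeks (dark) and 4 weeks (light), in order of role with lines between roles; filled points passed the threshold. Cpt2 at 4 weeks (0.60) is the filled point, and Angptl4 at 10 weeks (-0.72) lies left of its 4-week value (-0.04).

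The age comparison was of fresh cells at 10 against 4 weeks within a genotype. In wild type 1 of 33 genes passed, where 2.11% of all genes did. Abhd5, the activator of triglyceride breakdown, was at 134 and 132 CPM at 10 weeks and 186 and 201 CPM at 4 weeks, a log2 difference of -0.54 ± 0.10 (edgeR adjusted p = 0.0202). Its groups did not overlap, which with 2 libraries a group is common (40.6% of all genes between genotypes at 10 weeks). The call was lost without wild-type replicate 1 at 10 weeks (-0.55, edgeR adjusted p = 0.155), replicate 2 at 10 weeks (-0.52, 0.0984), replicate 1 at 4 weeks (-0.60, 0.0784) or replicate 2 at 4 weeks (-0.48, 0.144), and with the 10-week labels exchanged (-0.35, 0.194).

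In the libraries labelled knockout 4 of 33 genes passed, where 9.73% of all genes did. Abhd5 was at 169 and 169 CPM at 10 weeks and 240 and 228 CPM at 4 weeks (-0.47 ± 0.10, edgeR adjusted p = 0.0133). Angptl4 was at 98.5 and 81.2 CPM at 10 weeks and 173 and 159 CPM at 4 weeks (-0.88 ± 0.14, adjusted p = 0.00385 by edgeR). Both were lower at 10 weeks in each library, and Angptl4 kept its call without any 1 of the 4 libraries but lost it with the labels exchanged (-0.44, edgeR adjusted p = 0.354).

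Cpt2 was at 51.5 and 50.2 CPM at 10 weeks and 78.8 and 79.9 CPM at 4 weeks (-0.64 ± 0.11, edgeR adjusted p = 0.0049). Dgat2 was the 1 gene higher at 10 weeks, at 120 and 127 CPM against 88.3 and 62.1 CPM (0.71 ± 0.15, edgeR adjusted p = 0.0133). None of the 4 genes overlapped between ages, a separation that is common with 2 libraries a group (40.6% of all genes between genotypes at 10 weeks). Abhd5 lost its call without knockout replicate 1 or 2 at 10 weeks (-0.47 and -0.47, edgeR adjusted p = 0.062 and 0.0622) or replicate 1 or 2 at 4 weeks (-0.43 and -0.51, edgeR adjusted p = 0.1 and 0.0801). Dgat2 lost its call without replicate 2 at 10 weeks (0.67, edgeR adjusted p = 0.0696) or at 4 weeks (0.48, 0.128), and with the labels exchanged (0.54, 0.185). Cpt2 lost its call without replicate 2 at 4 weeks (-0.63, edgeR adjusted p = 0.051).

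Fabp5 was lower at 10 weeks in both genotypes without passing, at 178 and 228 CPM against 339 and 340 CPM in wild type (-0.74 ± 0.26, edgeR adjusted p = 0.147) and 193.5 and 184 CPM against 292 and 382 CPM in knockout (-0.83 ± 0.26, 0.062). Erythroid genes summed to 1334 to 3153 CPM at 4 weeks against 71.9 to 162 CPM at 10 weeks in wild type, and epithelial markers to 239 to 350 CPM against 434 to 538 CPM. In knockout these sums were 349 to 645 against 49.5 to 54.0 CPM and 216 to 476 against 597.5 to 727 CPM. Their part in the age differences was not tested. At 10 weeks 1 library of each genotype also came from another title series than the 4-week libraries and 1 from a female.

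Other genes of the same pathway were read from 4 lists: 20 tested regulators, 17 genes of uptake and activation, 30 of lipid droplets and 56 of oxidation. With vitamin D3, 3 regulators rose and 2 fell, 1 uptake gene rose and 4 fell, 2 droplet genes rose and 2 fell, and 1 oxidation gene rose and 2 fell, where 10.6% of all genes passed (5% higher and 5.63% lower). Their median log2 differences were 0.04, -0.10, -0.15 and -0.08, beside 0.00 over all genes tested.

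Pparg itself did not pass in any comparison. It was at 150 and 169 CPM without and 193 and 140 CPM with vitamin D3 (0.06 ± 0.14, edgeR adjusted p = 0.846), and at 170 to 194 CPM in fresh wild type against 237 to 262 CPM in fresh knockout (0.44 ± 0.10 over both ages, edgeR adjusted p = 0.0597). Ppara, the receptor that drives fatty acid oxidation in liver, was at 0 in 11 libraries and at 0.146 CPM in the other. Ppard was higher in untreated culture than in fresh wild type, by 0.54 ± 0.11 and 0.43 ± 0.11, and Rxra was lower, by -0.86 ± 0.13 and -0.46 ± 0.13. Neither passed with vitamin D3 (Ppard 0.22 ± 0.10, Rxra -0.40 ± 0.13, edgeR adjusted p = 0.234 and 0.076).

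Cd36, a scavenger receptor that takes up long fatty acids, had the smallest p of the 4 lists with vitamin D3. It was at 345 to 564 CPM in fresh wild type, 1261 and 1228 CPM in untreated culture and 3873 and 3110 CPM with vitamin D3 (log2 1.49 ± 0.13, edgeR adjusted p = 4.69e-05). Cd36 thus rose in culture and again with vitamin D3, where Fabp4 rose in culture and fell with vitamin D3. Ppargc1b, a coactivator of mitochondrial genes, rose from 6.13 and 4.13 to 15.0 and 13.1 CPM (1.44 ± 0.25, edgeR adjusted p = 0.00322). Nrip1, a corepressor, rose by 1.28 ± 0.23 (edgeR adjusted p = 0.00384).

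Nr1h3, which codes for the oxysterol receptor LXRα, fell from 71.5 and 86.1 to 23.9 and 46.8 CPM (-1.16 ± 0.24, edgeR adjusted p = 0.00841). Scarb1, a lipoprotein receptor, fell by -0.66 ± 0.11 and Cav1, the coat protein of caveolae, by -1.37 ± 0.27. Agpat3 and Agpat1, which make phosphatidic acid, rose by 0.82 ± 0.12 and 0.56 ± 0.12. Ivd, an enzyme of leucine breakdown, rose by 0.70 ± 0.14.

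In culture without vitamin D3, where 42.4% of all genes passed against 10 weeks and 39.7% against 4 weeks, the droplet list had 7 genes higher and 9 lower against 10 weeks and 8 and 8 against 4 weeks. Cidec, which enlarges lipid droplets by fusion, fell from 375 to 426 CPM in fresh wild type to 17.8 and 27.7 CPM (log2 -4.10 ± 0.21 and -4.23 ± 0.22, edgeR adjusted p = 1.49e-07 and 1.2e-07). With vitamin D3 it was lower again, at 9.54 and 13.7 CPM (-0.97 ± 0.21, edgeR adjusted p = 0.0123). Of the 56 oxidation genes, 22 were higher and 14 lower against 10 weeks and 19 and 9 against 4 weeks, beside the same 42.4% and 39.7%. Oxct1, which activates ketone bodies for burning, had its smallest p against both ages and rose 4.11-fold and 4.83-fold, from 75.1 to 108 CPM to 404 and 416 CPM.

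Among the 17 uptake genes, 8 were higher and 3 lower against 10 weeks and 6 and 3 against 4 weeks (42.4% and 39.7% of all genes), and carriers of the same family moved in opposite directions. Fabp1 fell from 140.5 to 202 CPM in fresh wild type to 2.13 and 3.97 CPM, while Fabp7 went from 0 to 0.237 CPM to 29.4 and 25.9 CPM, and with vitamin D3 fell to 9.64 and 10.5 CPM (-1.46 ± 0.36, edgeR adjusted p = 0.0242). Fabp1, called lower in knockout over both ages (-1.09 ± 0.23, edgeR adjusted p = 0.0472), had 140.5, 158, 202 and 181 CPM in wild-type against 116, 45.9, 83.6 and 70.1 CPM in knockout libraries. Eci2 was called higher there and Acot1 lower, both in the oxidation list (0.48 ± 0.10 and -0.54 ± 0.11, edgeR adjusted p = 0.0429 and 0.0459). The calls for Fabp1, Eci2 and Acot1 lie close to the threshold, and genes outside the 34 were not followed through the alternative fits. Over all genes, calls over both ages went from 127 to 29 with the 10-week labels exchanged.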

How the data were processed

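RNA was extracted with Qiagen RNeasy Micro and libraries were made with KAPA mRNA HyperPrep kits, per the labels' protocols. The deposited table holds whole-number read counts per gene; TopHat2, edgeR and the build mm9 are named, per the submitters' processing notes, without versions for the tools. The way reads were counted, with or without regard to strand, and what was done with reads shared by several genes are points not given in the sources that were used. A log2 table by the authors was left out.

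From the counts, genes with enough reads were kept (filterByExpr of edgeR 4.0.16, minimum count 10, minimum total 15). All 12 libraries entered 1 quasi-likelihood fit with TMM scaling, 6 groups and 6 residual degrees of freedom, in R 4.3.3. P-values were adjusted over all 12748 genes (Benjamini-Hochberg) with a threshold of 0.05. Log2 differences are followed by ± SE, levels are CPM on the scaled libraries, and levels between genes are per kb of the principal transcript (GENCODE M21, GRCm38). The interval quoted for Pdk4 has 95% confidence. The fit was tested on simulated data.

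The 34 genes and the pathway and marker lists were chosen with earlier results of these data known. Named genes are the 34 members, Vdr, the regulators Pparg, Ppara, Ppard and Rxra, and up to 6 genes of a pathway list with the smallest p among those called in a comparison. Cyp24a1, Xist and single marker genes were named after their values were seen. The transcript length, the promoters shown (members higher with vitamin D3), the GC and CCAAT boxes, and the comparison of vitamin D3 culture with fresh cells were chosen after values had been seen. Alternatives were other scaling, DESeq2 1.42.0, other filters, blocks, sex, exchanged 10-week labels, fits on the compared groups alone, and leaving out each library.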

Additional observations from a re-analysis of the deposited data

Results flagged for a closer look

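Lrp8, a lipoprotein receptor in the list of other uptake genes, differed between genotypes by age: its knockout difference at 10 weeks minus that at 4 weeks was -1.187 ± 0.20 on the log2 scale (edgeR interaction test, adjusted p = 0.0495). The 10-week libraries had 38.8 and 40.3 CPM of Lrp8 in wild type against 38.4 and 29.3 CPM in knockout. The 4-week libraries had 42.2 and 34.1 CPM in wild type against 71.0 and 78.5 CPM in knockout, so both 4-week knockout libraries stood above the other 10. The 4-week difference alone was 0.97 ± 0.14 (edgeR adjusted p = 0.0095). The interaction call lies close to the threshold, and Lrp8 was not followed through the alternative fits. Over all genes, interaction calls went from 24 to 12 with the 10-week labels exchanged.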

How the results depend on the processing

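Of 4455 values recomputed under the alternatives, 4277 kept their direction and side of the threshold, 63 lost and 115 gained a call, and 0 called values reversed; 254 differences that were not called changed sign and are counted as kept. The vitamin D3 calls for Fabp4, Acsl4, Dgat1, Cpt1a, Hadhb and Pdk4 held in every alternative run, as did 18 of 23 and 16 of 20 culture calls. With no low-count filter, genes past the threshold numbered 4 (knockout at 10 weeks), 4 (knockout at 4 weeks), 7 (both ages), 1 (interaction), 3 (age in wild type), 10 (age in knockout) and 17 (vitamin D3), against 0, 1, 0, 0, 1, 4 and 11. DESeq2 gave 1 at 10 weeks and 6 over both ages. Fits on the compared groups alone gave 5 (knockout at 4 weeks), 3 (both ages), 3 (age in wild type), 7 (age in knockout) and 7 (vitamin D3). The title series as a block gave 1 at 10 weeks and 3 over both ages. Without both female libraries the counts were 0 (knockout at 4 weeks), 0 (age in wild type) and 2 (age in knockout), and with the 10-week labels exchanged 0 (knockout at 4 weeks) and 0 (age in wild type). The cause was not tested. Leaving out 1 library at a time gave 0 to 0 for knockout at either age, over both ages, for the interaction and for age in wild type, 1 to 3 for age in knockout, 7 to 13 for vitamin D3, 20 to 24 and 18 to 22 for culture, and 29 to 32 for any difference. A group left with 1 library was assumed to vary like the others.

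Same-numbered libraries were not shown to be paired: their deviations correlated at 0.166 at 10 weeks and -0.176 at 4 weeks, and at 0.361 in culture by title series. The replicate block gave 2 genes for knockout over both ages, 0 for age in wild type and 17 for vitamin D3. The crossed 4-week pairing, added after seeing the data, gave 1.

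Over all genes, counts moved more than 1.5 times with DESeq2 (14 to 149 at 10 weeks, 85 to 261 at 4 weeks, 127 to 369 over both ages, 24 to 89 for the interaction, 269 to 676 for age in wild type), with no filter (503, 690, 791, 392 and 1223, and 1240 to 2059 for age in knockout), and on the compared groups alone (26, 635, 273, 52 and 606, and 1356 to 644 for vitamin D3). They also moved that far with the title series as a block (52 at 10 weeks, 162 at 4 weeks, 251 over both ages, 40 for the interaction), the replicate block (39, 146 and 200 for knockout, 781 for age in knockout), the crossed pairing (277 at 4 weeks), sex as a covariate (24 at 10 weeks), without both female libraries (2 at 10 weeks, 43 over both ages, 10 for the interaction, 525 for age in knockout) and with labels exchanged (6 at 10 weeks, 42 at 4 weeks, 29 over both ages, 12 for the interaction, 821 for age in knockout). Leaving out 1 library gave 1 to 71 at 10 weeks, 26 to 39 at 4 weeks, 24 to 184 over both ages, 5 to 15 for the interaction, 58 to 153 and 242 to 651 for age in wild type and knockout, and 545 to 1345 for vitamin D3. Genes near the filter, such as G0s2 in culture, rest on few counts.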
